A study of Mus musculus with 6 samples.

Results

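The nuclear genes for subunits of the mitochondrial respiratory chain and ATP synthase were examined in infarcted mouse hearts with and without the receptor for thymic stromal lymphopoietin (TSLP). Members were the protein-coding genes whose symbols begin with *Uqcr* or *Atp5*, with *Nduf* followed by a, b, c, s or v and a digit, or with *Cox4* to *Cox8* followed by a, b, c or i. The assembly factors named *Ndufaf* were left out. This rule found 81 of the 54532 listed genes, of which 22046 were protein-coding. By symbol, 37 members belong to complex I, 8 to complex III, 18 to complex IV and 18 to complex V. Symbols do not always follow the protein. *Ndufa4* was counted with complex I although its product is known as a complex IV subunit, *Cox7a2l* encodes a supercomplex assembly factor, and *Atp5s* encodes a coupling factor. *Ndufab1* and *Cyc1*, subunits of complexes I and III, fall outside the rule and are given separately.

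The study ligated the left anterior descending coronary artery of 3 WT and 3 *Crlf2*-/- mice of strain C57BL/6 and sequenced 1 heart library per mouse from the peri-infarcted and infarcted tissue on day 7 post-MI. *Crlf2* encodes the TSLP receptor chain, and KO in the labels stands for *Crlf2*-/-. All 6 mice had undergone MI, and no sham heart was analysed here. The methods describe the WT animals as young adult males bought from a supplier, whereas the knockout line was made by a company on the C57BL/6J background, so the origin of the mice and the genotype cannot be told apart. WT and *Crlf2*-/- mice below are numbered as in the labels, and a shared number does not mean a shared litter or batch.

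Oxidative phosphorylation takes place in the inner mitochondrial membrane. Complex I and complex II pass electrons from NADH and succinate to ubiquinone, complex III passes them on to cytochrome c, and complex IV, cytochrome c oxidase, passes them to oxygen. Complexes I, III and IV pump protons, and ATP synthase, or complex V, lets the protons return and makes ATP. Some subunits of complexes I, III, IV and V are encoded by the mitochondrial genome and the others by nuclear genes. The heart depends on this pathway for contraction, and cardiomyocytes are packed with mitochondria. Several complex IV subunits exist as a widely expressed form and a form of heart and skeletal muscle.

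The listed genes received 18508646 to 19682428 fragments per library. *Crlf2* itself was at 26.7, 24.8 and 21.6 FPKM in the 3 WT mice and at 13.3, 18.6 and 19.9 FPKM in the 3 *Crlf2*-/- mice, so transcripts of the targeted gene were present in all 3 knockout libraries, each below every WT library (log2 fold change -0.51, adjusted p = 0.527 from limma). FPKM is the number of fragments corrected for gene length and library size, here also scaled between libraries. The library of *Crlf2*-/- mouse 2 stood apart. Its 8 skeletal muscle markers summed to 345 FPKM, against 3.58 to 5.66 FPKM in the other 5 libraries. *Mylpf*, a light chain of fast skeletal muscle, was at 147 FPKM there and at most 0.78 FPKM elsewhere, and *Myh4*, a fast myosin heavy chain, was at 10.7 FPKM there and at 0 in the other 5. The hearts also differed in their 12 cardiomyocyte markers, which were present in every library. These markers summed to 1246, 2296 and 2097 FPKM in the WT mice and to 958, 820 and 1625 FPKM in the *Crlf2*-/- mice. The part of both differences in the values below was not tested, and fewer cardiomyocytes and less RNA per cardiomyocyte cannot be told apart in tissue RNA. *Crlf2*-/- mouse 1 held the lowest value for most members. The main results are therefore also given without mouse 1 or mouse 2 of the *Crlf2*-/- group.

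Of the 81 members, 78 passed the filter on low values. *Cox7b2* had 1 fragment in WT mouse 1 and 1 in *Crlf2*-/- mouse 2, and *Cox8c* and a second record for *Atp5o* (ENSMUSG00000116933) had 0 fragments in each library. *Cox7b2* and *Cox8c* are known from testis. The lowest value of any tested member in any library was 38 fragments. Mean levels over the 6 libraries ran from 1.11 FPKM for *Ndufb2* to 158 FPKM for *Atp5a1*, and 68 members were at 10 FPKM or more. After *Atp5a1*, the alpha subunit of the catalytic head of ATP synthase, came its partner *Atp5b*, the beta subunit, at 138 FPKM, followed by the complex IV subunit *Cox6a1* at 128 FPKM and by *Cox7a2l* at 126 FPKM. *Atp5a1* was at 165, 185 and 160 FPKM in WT mice and at 125, 149 and 163 FPKM in *Crlf2*-/- mice. *Atp5b* was at 139, 160 and 140 FPKM in WT mice and at 113, 130 and 146 FPKM in *Crlf2*-/- mice. *Atp5a1* lay above *Atp5b* in all 6 libraries, whereas *Cox7a2l* lay above *Cox6a1* in the 3 WT libraries and below it in the 3 *Crlf2*-/- libraries. *Cox7a2l* and *Cox6a1* were not a pair chosen for testing, and how often other pairs of members split in this way was not counted. Levels between genes also depend on the gene length the authors used. In 36 members that length was over 1.5 times the longest coding transcript of GENCODE M21, and for *Atp5l* it was 6443 bases against 544, which lowers FPKM for such genes in all libraries alike.

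No member passed the test between genotypes. With an adjusted p (limma, Benjamini-Hochberg) up to 0.05 and a log2 fold change of 0.5 or more in size as the threshold, limma called 0 of 78 members, against 2 of 15520 genes tested (0.0129%). The study used DESeq2 at the same thresholds and reported more genes than limma called here. The reason for that difference was not tested. The smallest adjusted p among the members was 0.463. Nevertheless, 71 of 78 members (91.0%) had a lower mean in *Crlf2*-/- than in WT hearts, where 50.0% of all tested genes did. The median log2 fold change of the members was -0.20, and that of all tested genes was -9.84e-06. At an unadjusted limma p under 0.05, 13 members were lower and 0 higher in *Crlf2*-/- hearts, and over all tested genes the shares were 3.24% lower and 3.31% higher. In 14 members (17.9%) all 3 *Crlf2*-/- values lay below all 3 WT values, against 6.15% of all tested genes, and 0 members lay above in the same way, against 5.57%. Among these 14 were *Ndufa3*, *Ndufs5* and *Ndufa10* of complex I, *Uqcr10*, *Uqcrh* and *Uqcrb* of complex III, *Cox7b* of complex IV, and *Atp5g1*, *Atp5h*, *Atp5j*, *Atp5k*, *Atp5l* and *Atp5mpl* of complex V. The members' fold changes are not independent of each other, since all of them come from the same 6 hearts.

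**Figure D1:**
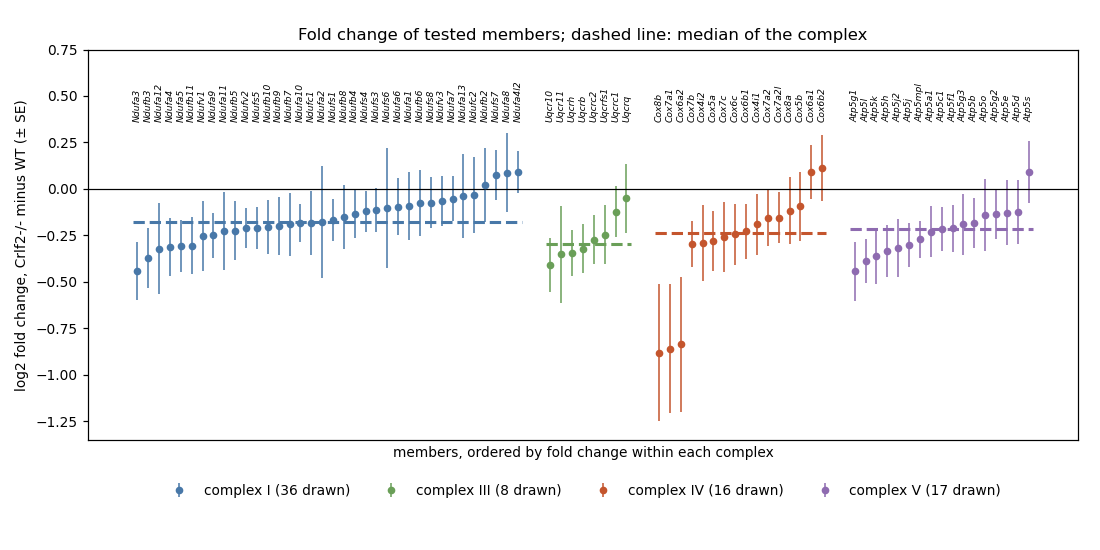
Each point is the log2 fold change of 1 of 77 tested members (1 of the 78 is not drawn), *Crlf2*-/- minus WT, on the log2(FPKM + 0.1) scale, with its standard error as a bar, ordered within complexes I, III, IV and V along the horizontal axis. Dashed lines mark the median of each complex, at -0.18, -0.30, -0.24 and -0.22, and *Cox8b*, *Cox7a1* and *Cox6a2* lie apart from the other members near the bottom.

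A single heart carried much of this difference. *Crlf2*-/- mouse 1 had the lowest of the 6 values in 68 of 78 members, whereas it was lowest in 19.1% of all tested genes. It lay below every WT library in 73 members and above every WT library in 0, where 27.3% and 26.3% of all tested genes did. *Crlf2*-/- mouse 2 lay below in 30 members and above in 8 (27.0% and 25.5% of all tested genes), and *Crlf2*-/- mouse 3 lay below in 18 and above in 10 (24.4% and 24.2%). The members of *Crlf2*-/- mouse 3 were thus near the background in the lower direction. The highest value was that of WT mouse 2 in 55 members. Taken over the members, the median deviation from the WT mean was 0.01, 0.13 and -0.14 (log2) in the 3 WT libraries and -0.47, -0.09 and -0.03 in the 3 *Crlf2*-/- libraries. *Crlf2*-/- mice 2 and 3 thus lay within the WT range, and *Crlf2*-/- mouse 1 lay below it. The depth of the library of *Crlf2*-/- mouse 1, 18578175 fragments, was inside the range of the other 5.

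**Figure D2:**
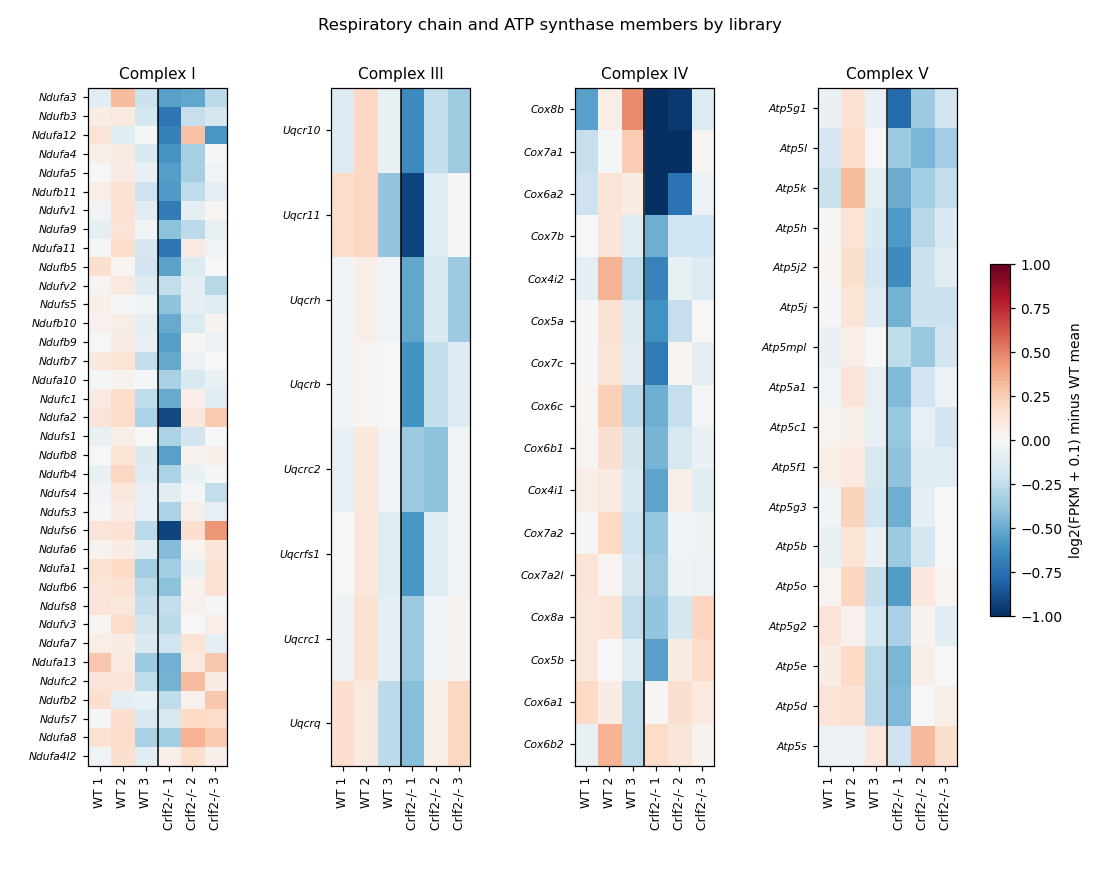
Rows are 77 of the 78 tested members by complex and columns are the 6 libraries; colour gives log2(FPKM + 0.1) minus the WT mean of the gene, blue for lower and red for higher, and the scale ends at -1 and 1, so stronger values share the end colour. The column of *Crlf2*-/- mouse 1 is blue in nearly all rows, and it was lowest in 68 of 78 members.

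Without *Crlf2*-/- mouse 1 the median log2 fold change of the members was -0.06 and 66.7% of them were below 0, against 50.3% of all tested genes. In that setting the 2 remaining *Crlf2*-/- libraries lay below all 3 WT libraries in 14 members (17.9%, against 11.3% of all tested genes). They lay above all 3 WT libraries in 4 of 78 members, against 1747 of all 15520 tested genes. Leaving out *Crlf2*-/- mouse 2, the library with skeletal muscle transcripts, gave a median of -0.25 with 93.6% below 0. Leaving out WT mouse 3, the lowest of the WT libraries, gave -0.27 with 97.4% below 0, and leaving out WT mouse 2, the highest, gave -0.14 with 84.6% below 0. Every setting kept the median below 0, but its size depended on *Crlf2*-/- mouse 1 more than on any other library. In each of them limma called 0 members.

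**Figure D3:**
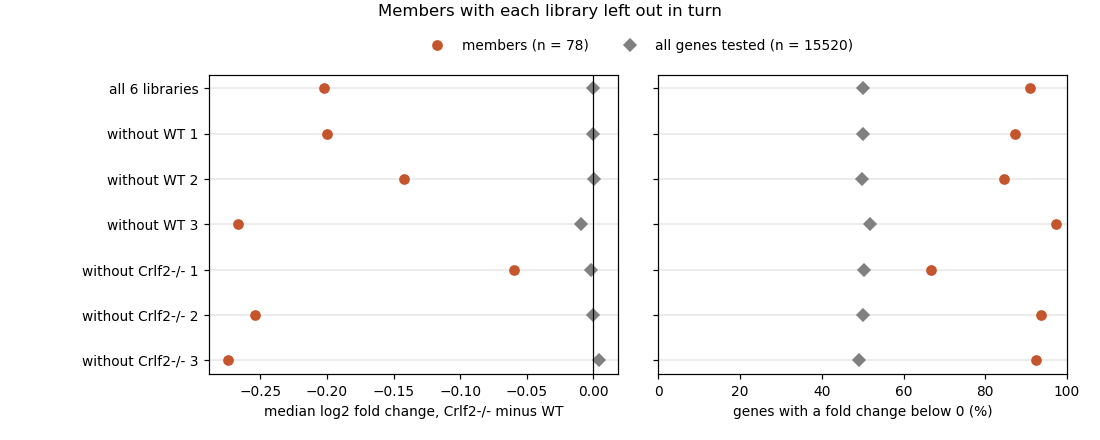
The left panel gives the median log2 fold change of the 78 tested members and of all 15520 tested genes with all 6 libraries and with each library left out, and the right panel gives the percentage of genes with a fold change below 0. The members run from -0.27 to -0.06 in the left panel and from 66.7% to 97.4% in the right one, with the value nearest the background when *Crlf2*-/- mouse 1 is left out.

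Complex I takes up electrons from NADH through a peripheral arm and pumps protons through a membrane arm. Its members summed to 971 ± 101 FPKM in WT hearts (SD, n = 3) and to 875 ± 148 FPKM (SD, n = 3) in *Crlf2*-/- hearts. Of the 37 genes, 33 had a lower mean in *Crlf2*-/- hearts, with a median log2 fold change of -0.18 and a range from -0.44 to 0.09. Without *Crlf2*-/- mouse 1 the median of complex I was -0.02. The 7 core subunits, which include the carriers of the flavin and the iron-sulfur clusters, had a median of -0.17, and the 28 accessory subunits had a median of -0.18. *Ndufa3*, an accessory subunit of the membrane arm (chromosome 7, 3617373 to 3620327, plus strand, mm10), was at 25.0, 33.6 and 23.1 FPKM in WT mice and at 18.4, 18.7 and 22.4 FPKM in *Crlf2*-/- mice. Its groups did not overlap, although *Crlf2*-/- mouse 3 came within 1 FPKM of WT mouse 3. The difference between the groups was -0.44 (log2 fold change, standard error 0.16, adjusted p = 0.614). The fold change of *Ndufa3* was -0.28 without WT mouse 2, its highest library. Its record overlaps *Tfpt* on the opposite strand, and without strand information their reads cannot be told apart.

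*Ndufb3*, another accessory subunit of the membrane arm, was at 28.9, 29.4 and 24.3 FPKM in WT mice and at 16.6, 23.4 and 24.4 FPKM in *Crlf2*-/- mice (log2 fold change -0.37, adjusted p = 0.764). *Ndufa5*, of the peripheral arm, was at 25.7, 27.3 and 24.5 FPKM in WT mice and at 17.6, 20.5 and 25.1 FPKM in *Crlf2*-/- mice (log2 fold change -0.31, adjusted p = 0.789). In both genes *Crlf2*-/- mouse 3 lay above the lowest WT mouse, and without *Crlf2*-/- mouse 1 their fold changes were -0.20 and -0.18. *Ndufb11*, one of the more abundant accessory subunits, was at 67.0, 71.0 and 55.8 FPKM in WT mice and at 43.3, 53.9 and 60.1 FPKM in *Crlf2*-/- mice, with overlap (log2 fold change -0.31, and -0.17 without *Crlf2*-/- mouse 1).

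*Ndufa2* shows how far the result of a member could rest on 1 heart. It was at 64.9, 67.6 and 47.7 FPKM in WT mice and at 31.6, 64.1 and 71.2 FPKM in *Crlf2*-/- mice. Only the first of the *Crlf2*-/- values lay below the WT range, and the last lay above it. The log2 fold change of *Ndufa2* was -0.18 with all libraries and 0.19 without *Crlf2*-/- mouse 1. The 4 complex I members with a higher mean in *Crlf2*-/- hearts were *Ndufa4l2* (log2 fold change 0.09), *Ndufa8* (0.09), *Ndufs7* (0.08) and *Ndufb2* (0.02). *Ndufs7* holds the last iron-sulfur cluster before ubiquinone, and *Ndufa4l2* is known as a hypoxia-induced relative of *Ndufa4*. None of the 4 had groups that did not overlap.

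Complex III had the most negative median of the 4 complexes. Its 8 members summed to 404 ± 30.3 FPKM in WT hearts (SD, n = 3) and to 333 ± 50.6 FPKM (SD, n = 3) in *Crlf2*-/- hearts, a ratio of 0.82. All 8 members had a lower mean in *Crlf2*-/- hearts, with a median log2 fold change of -0.30. The 3 larger proteins, the core proteins *Uqcrc1* and *Uqcrc2* and the Rieske iron-sulfur protein *Uqcrfs1*, had a median of -0.25, and the 5 small subunits had a median of -0.34. *Uqcr10*, a small subunit in the membrane (chromosome 11, 4701973 to 4704342, minus strand, mm10), was at 64.0, 80.6 and 66.3 FPKM in WT mice and at 44.9, 59.3 and 54.8 FPKM in *Crlf2*-/- mice. All 3 *Crlf2*-/- values lay below the WT values (log2 fold change -0.41, standard error 0.15, adjusted p = 0.614). Without *Crlf2*-/- mouse 1 its fold change was -0.29, and without *Crlf2*-/- mouse 2 it was -0.49.

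*Uqcrh*, the hinge protein between cytochrome c1 and cytochrome c, was at 84.8, 90.3 and 84.5 FPKM in WT mice and at 60.3, 77.9 and 67.2 FPKM in *Crlf2*-/- mice. The WT values lay within 6 FPKM of each other, and the groups did not overlap (log2 fold change -0.34, standard error 0.12, adjusted p = 0.628). *Uqcrb*, the ubiquinone-binding small subunit, was at 42.4, 43.9 and 43.1 FPKM in WT mice and at 28.5, 36.6 and 39.4 FPKM in *Crlf2*-/- mice (log2 fold change -0.32, adjusted p = 0.733, and -0.18 without *Crlf2*-/- mouse 1). *Uqcrfs1* was at 72.3, 77.9 and 66.4 FPKM in WT mice and at 48.0, 66.4 and 70.4 FPKM in *Crlf2*-/- mice, and its groups overlapped (log2 fold change -0.25, and -0.08 without *Crlf2*-/- mouse 1). At the other end, *Uqcrq* was at 31.1, 29.6 and 23.0 FPKM in WT mice and at 20.6, 28.9 and 32.0 FPKM in *Crlf2*-/- mice, so that its log2 fold change of -0.05 hid a spread wider than the difference. The median of complex III without *Crlf2*-/- mouse 1 was -0.13.

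ATP synthase consists of a catalytic head (F1), a peripheral stalk that holds the head still, and a membrane part whose ring of c subunits turns as protons pass. Its members summed to 856 ± 76.2 FPKM in WT hearts (SD, n = 3) and to 738 ± 93.8 FPKM (SD, n = 3) in *Crlf2*-/- hearts. Of the 17 tested members, 16 had a lower mean in *Crlf2*-/- hearts, the exception being *Atp5s*, at 2.33, 2.35 and 2.65 FPKM in WT mice and at 2.10, 3.08 and 2.73 FPKM in *Crlf2*-/- mice. The medians were -0.18 for the 5 head subunits, -0.26 for the 4 tested peripheral stalk subunits, -0.19 for the 3 c subunit genes and -0.34 for the 4 other membrane subunits. Complex V held 6 of the 14 members without overlap. These were 35.3% of its tested members, against 6.15% of all tested genes. The shares were 10.8% in complex I, 37.5% in complex III and 6.25% in complex IV. The median of complex V without *Crlf2*-/- mouse 1 was -0.12.

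*Atp5l*, the g subunit, which sits where ATP synthase pairs into dimers, had the smallest p of all members (adjusted p = 0.463 from limma). It was at 8.98, 11.4 and 10.1 FPKM in WT mice and at 7.86, 7.34 and 7.96 FPKM in *Crlf2*-/- mice. The *Crlf2*-/- values lay close together, and all 3 were below the lowest WT value (log2 fold change -0.39, standard error 0.12). The log2 fold change of *Atp5l* was -0.40 without *Crlf2*-/- mouse 1 and -0.35 without *Crlf2*-/- mouse 2. *Atp5mpl*, a small proteolipid of the membrane part, was at 28.9, 31.8 and 30.2 FPKM in WT mice and at 25.4, 23.3 and 26.7 FPKM in *Crlf2*-/- mice (log2 fold change -0.27, standard error 0.10, adjusted p = 0.647). It too was lowest in *Crlf2*-/- mouse 2 rather than mouse 1, and its fold change was -0.28 without mouse 1 and -0.22 without mouse 2. *Atp5k*, the e subunit and neighbour of *Atp5l* in the complex, was at 20.2, 29.5 and 22.2 FPKM in WT mice and at 16.8, 18.7 and 19.9 FPKM in *Crlf2*-/- mice (log2 fold change -0.36). Its groups came close, with 19.9 FPKM in *Crlf2*-/- mouse 3 against 20.2 FPKM in WT mouse 1. *Atp5k*, *Atp5h* and *Atp5j* were named after their values were seen, because their groups did not overlap.

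In the peripheral stalk, *Atp5h*, the d subunit, was at 59.8, 65.1 and 53.7 FPKM in WT mice and at 40.0, 49.0 and 53.3 FPKM in *Crlf2*-/- mice. *Atp5j*, known as coupling factor 6, was at 24.6, 27.2 and 22.6 FPKM in WT mice and at 17.8, 21.3 and 21.3 FPKM in *Crlf2*-/- mice. In both genes the lowest WT value lay less than 2 FPKM above the highest *Crlf2*-/- value. In the head, *Atp5c1*, the central gamma subunit that turns with the ring, was at 86.4, 88.0 and 79.8 FPKM in WT mice and at 65.0, 79.8 and 74.3 FPKM in *Crlf2*-/- mice (log2 fold change -0.22). *Atp5a1* and *Atp5b*, given above, had log2 fold changes of -0.23 and -0.18, and their groups overlapped. With *Crlf2*-/- mouse 1 left out, the fold change was -0.14 for *Atp5c1*, -0.12 for *Atp5a1* and -0.09 for *Atp5b*, and for *Atp5h* it went from -0.33 to -0.22.

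The identical c subunit of the mature ring is encoded by 3 genes that differ in their targeting sequence. *Atp5g2* was the most abundant, at 60.1, 56.8 and 48.7 FPKM in WT mice and at 43.9, 56.4 and 50.8 FPKM in *Crlf2*-/- mice. *Atp5g3* was at 47.8, 57.0 and 42.4 FPKM in WT mice and at 34.7, 45.9 and 48.9 FPKM in *Crlf2*-/- mice. Both overlapped between groups. *Atp5g1* was at 13.0, 15.1 and 12.9 FPKM in WT mice and at 7.95, 10.6 and 11.9 FPKM in *Crlf2*-/- mice, without overlap (log2 fold change -0.44, standard error 0.16, adjusted p = 0.612). The fold change of *Atp5g1* was -0.28 without *Crlf2*-/- mouse 1. As a share of the summed FPKM of the 3 genes, *Atp5g1* was at 10.8%, 11.7% and 12.4% in WT mice and at 9.18%, 9.36% and 10.7% in *Crlf2*-/- mice. The share was thus 11.6% ± 0.817 (SD, n = 3) in WT and 9.74% ± 0.828 (SD, n = 3) in *Crlf2*-/- hearts, where *Atp5g2* and *Atp5g3* held 48.7% and 41.5%. No test was run on these shares.

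Complex IV held the 3 members with the largest fold changes, and these were its muscle isoforms. Its members summed to 929 ± 84.7 FPKM in WT hearts (SD, n = 3) and to 815 ± 130 FPKM (SD, n = 3) in *Crlf2*-/- hearts, and 14 of 16 tested members had a lower mean in *Crlf2*-/- hearts (median log2 fold change -0.24, and -0.08 without *Crlf2*-/- mouse 1). *Cox6a2*, *Cox7a1* and *Cox8b* are the heart and skeletal muscle forms of subunits 6a, 7a and 8, and *Cox6a1*, *Cox7a2* and *Cox8a* are the widely expressed forms. *Cox8b* (chromosome 7, 140898945 to 140900446, minus strand, mm10) was at 15.3, 23.3 and 30.9 FPKM in WT mice and at 7.58, 11.4 and 20.2 FPKM in *Crlf2*-/- mice (log2 fold change -0.88, standard error 0.37, adjusted p = 0.735). *Cox7a1* (chromosome 7, 30184144 to 30186078, plus strand) was at 7.41, 8.61 and 10.4 FPKM in WT mice and at 3.23, 3.75 and 8.91 FPKM in *Crlf2*-/- mice (log2 fold change -0.86, standard error 0.35, adjusted p = 0.720). *Cox6a2* (chromosome 7, 128205435 to 128206387, minus strand) was at 52.2, 66.6 and 63.4 FPKM in WT mice and at 18.3, 36.3 and 58.1 FPKM in *Crlf2*-/- mice (log2 fold change -0.84, standard error 0.36, adjusted p = 0.764). In all 3 genes *Crlf2*-/- mice 1 and 2 lay below every WT mouse and *Crlf2*-/- mouse 3 lay inside the WT range, so none of them was among the 14 members without overlap.

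In the widely expressed forms *Crlf2*-/- mouse 2 lay inside the WT range. *Crlf2*-/- mouse 1 lay below every WT mouse in *Cox7a2* and *Cox8a*, but not in *Cox6a1*. *Cox6a1* was at 141, 130 and 102 FPKM in WT mice and at 125, 137 and 132 FPKM in *Crlf2*-/- mice (log2 fold change 0.09). *Cox7a2* was at 58.1, 65.9 and 49.7 FPKM in WT mice and at 44.0, 56.4 and 55.4 FPKM in *Crlf2*-/- mice (-0.16). *Cox8a* was at 112, 114 and 87.3 FPKM in WT mice and at 78.8, 91.7 and 120 FPKM in *Crlf2*-/- mice (-0.12). The groups overlapped in all 3 genes, as they did in the muscle forms. Each widely expressed form lay above its muscle form in all 6 libraries.

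**Figure D4:**
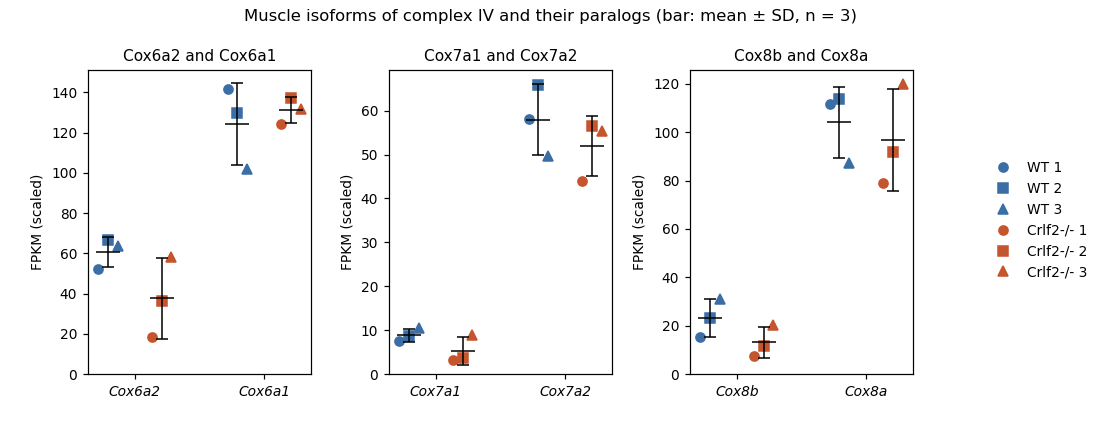
Each panel shows scaled FPKM of a muscle isoform of complex IV and of its widely expressed form in the 3 WT and 3 *Crlf2*-/- hearts, with the mean as a long bar and the SD as whiskers (n = 3). *Crlf2*-/- mice 1 and 2 lie below all WT mice for *Cox6a2*, *Cox7a1* and *Cox8b*, and *Crlf2*-/- mouse 3 does not.

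A ratio of 2 genes within a library does not depend on the scaling between libraries. *Cox6a2* stood to *Cox6a1* at 0.369, 0.514 and 0.622 in WT mice and at 0.147, 0.264 and 0.441 in *Crlf2*-/- mice. The ratio of *Cox7a1* to *Cox7a2* was 0.128, 0.131 and 0.210 in WT mice and 0.0734, 0.0665 and 0.161 in *Crlf2*-/- mice, and that of *Cox8b* to *Cox8a* was 0.137, 0.205 and 0.354 in WT mice and 0.0961, 0.124 and 0.168 in *Crlf2*-/- mice. All 3 ratios had lower means in *Crlf2*-/- hearts and overlapped between the groups. The differences in mean log2 ratio were -0.93 for *Cox6a2* (exact permutation test, two-sided, p = 0.2), -0.70 for *Cox7a1* (exact p = 0.3) and -0.76 for *Cox8b* (exact p = 0.2). With 3 mice against 3 this test cannot go below 0.1, and over the 6 pairs tested the Benjamini-Hochberg adjusted values were 0.30, 0.36 and 0.30 in the same order (exact permutation tests). Without *Crlf2*-/- mouse 1 the differences were -0.52, -0.54 and -0.57, and without *Crlf2*-/- mouse 2 they were -0.94, -0.47 and -0.75.

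The cardiomyocyte markers had a similar order over the hearts. In the 3 WT libraries the median deviation of the 12 cardiomyocyte markers from the WT mean was -0.51, 0.19 and 0.24 (log2), and in the 3 *Crlf2*-/- libraries it was -0.92, -1.12 and -0.11. The muscle isoforms of complex IV were at -0.23, 0.07 and 0.25 in WT libraries and at -1.54, -0.96 and -0.06 in *Crlf2*-/- libraries. Both lists were lowest in *Crlf2*-/- mice 1 and 2, next lowest in WT mouse 1 and near the WT mean in *Crlf2*-/- mouse 3. The 75 members other than the muscle isoforms followed another order, at 0.01, 0.13 and -0.14 in WT libraries and at -0.47, -0.08 and -0.03 in *Crlf2*-/- libraries. The heart with the lowest cardiomyocyte markers, *Crlf2*-/- mouse 2, thus lay inside the WT range for them. That library also held the skeletal muscle transcripts, and their part in the values of these 75 members was not tested. All 12 cardiomyocyte markers had a lower mean in *Crlf2*-/- hearts (median log2 fold change -0.72) and 0 of them were called. *Cox6a2*, *Cox7a1* and *Cox8b* are also known from skeletal muscle, and the part of the skeletal muscle transcripts in their values in *Crlf2*-/- mouse 2 was not tested. Without that library their log2 fold changes were -0.89 for *Cox6a2*, -0.69 for *Cox7a1* and -0.84 for *Cox8b*, and without *Crlf2*-/- mouse 1 they were -0.39, -0.58 and -0.55.

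**Figure D5:**
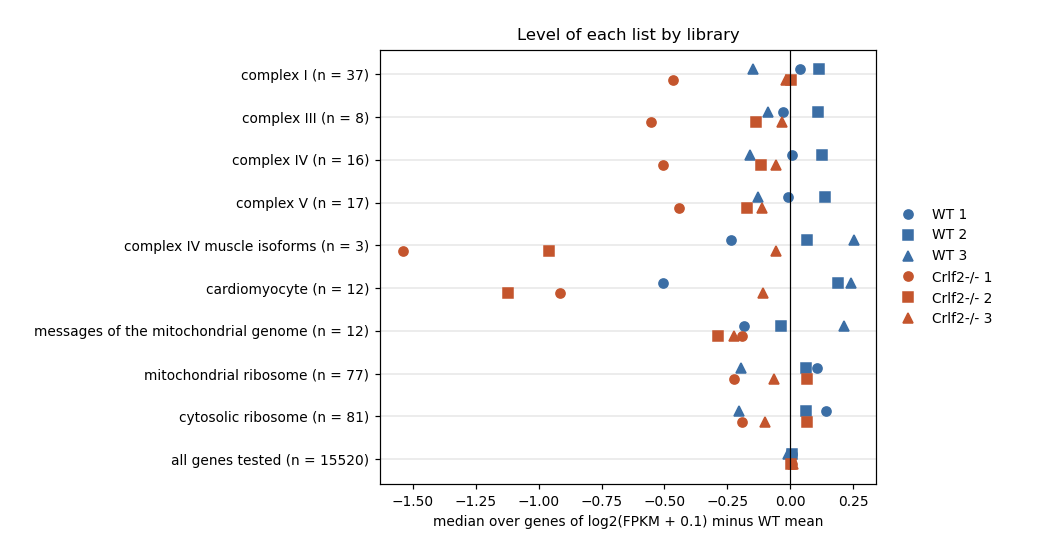
For each list the points give the median over its tested genes of log2(FPKM + 0.1) minus the WT mean, 1 point per library, with circles, squares and triangles for mice 1, 2 and 3 of a group. *Crlf2*-/- mouse 1 lies between -0.55 and -0.44 in the 4 complexes, whereas *Crlf2*-/- mouse 2 has the lowest cardiomyocyte median at -1.12.

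The other complex IV members were closer to the remaining complexes. The 7 subunits without a muscle form had a median log2 fold change of -0.24. *Cox7b*, a small subunit on the X chromosome, was the only complex IV member without overlap, at 46.3, 50.3 and 42.5 FPKM in WT mice and at 32.9, 40.3 and 40.3 FPKM in *Crlf2*-/- mice (log2 fold change -0.30, standard error 0.12, adjusted p = 0.736, and -0.20 without *Crlf2*-/- mouse 1). *Cox7a2l* was at 145, 134 and 117 FPKM in WT mice and at 103, 127 and 127 FPKM in *Crlf2*-/- mice, with overlap. Of the regulatory subunit 4, *Cox4i1* was at 119, 120 and 102 FPKM in WT mice and at 78.6, 118 and 105 FPKM in *Crlf2*-/- mice. Its counterpart *Cox4i2*, known from lung and from hypoxia, was at 5.86, 7.99 and 5.28 FPKM in WT mice and at 3.92, 5.96 and 5.71 FPKM in *Crlf2*-/- mice. The log2 ratio of *Cox4i1* to *Cox4i2* differed by 0.10 between the groups (exact permutation test, p = 0.7).

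*Cox6b1* was at 124, 137 and 108 FPKM in WT mice and at 88.6, 110 and 117 FPKM in *Crlf2*-/- mice. *Cox6b2*, its relative known from testis, was at 2.01, 2.72 and 1.73 FPKM in WT mice and at 2.42, 2.31 and 2.17 FPKM in *Crlf2*-/- mice, and its log2 fold change of 0.11 was the highest of all members. The log2 ratio of *Cox6b1* to *Cox6b2* was lower by 0.34 in *Crlf2*-/- hearts (difference -0.34, exact permutation test, p = 0.2). *Ndufa4* was at 56.5, 57.7 and 48.9 FPKM in WT mice and at 35.9, 43.1 and 53.5 FPKM in *Crlf2*-/- mice, whereas *Ndufa4l2* was at 34.9, 40.4 and 33.3 FPKM in WT mice and at 37.3, 40.8 and 37.4 FPKM in *Crlf2*-/- mice. *Ndufa4* thus stood to *Ndufa4l2* at 1.62, 1.43 and 1.47 in WT mice and at 0.964, 1.06 and 1.43 in *Crlf2*-/- mice. The ratios of *Crlf2*-/- mice 1 and 2 were near 1 and below all WT ratios, and that of *Crlf2*-/- mouse 3 equalled the lowest WT ratio to 3 digits (difference of the mean log2 ratio -0.41, exact permutation test, p = 0.2, adjusted value 0.30).

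Promoter sequence was compared because nuclear genes of this pathway are known to share control by NRF1, by ETS factors such as GABP and by oestrogen-related receptors (ERR), and muscle genes by MEF2. RefSeq (GRCm38.p6) held 68 promoters for 63 member genes, and the 250 bases before each start were searched on both strands for 1 exact word per factor. The NRF1 word GCATGCGC was in 10.3% of member promoters and in 2.26% of all 32851 promoters. The ETS word CCGGAAG was in 16.2% and 6.91%, the ERR word TCAAGGTCA in 1.47% and 0.387%, and the MEF2 word CTAAAAATA in 0 of 68 and 0.469%. The NRF1 and ETS words each contain a CpG dinucleotide, and member promoters had a median of 14 CpG against 6 over all promoters. The promoters compared were not matched for CpG, and its part in these shares was not tested. The 7 member genes with the NRF1 word were *Atp5g2*, *Atp5k*, *Atp5l*, *Cox6a1*, *Ndufa6*, *Ndufa8* and *Ndufa11*, and the ERR word was in *Atp5g3*. These words do not overlap one another in the sequences shown. *Atp5l*, the member with the smallest p, and *Cox6a1* held both the NRF1 and the ETS word, while their log2 fold changes were -0.39 and 0.09. A match is a description of letters and not a site. The promoters of a muscle form and a widely expressed form of 2 complex IV subunits and that of *Atp5l* are shown 5′ to 3′, each ending at the base before the RefSeq start, with the searched words in capitals where present:
Cox7a1 (chr7:30183921-30184170, plus strand): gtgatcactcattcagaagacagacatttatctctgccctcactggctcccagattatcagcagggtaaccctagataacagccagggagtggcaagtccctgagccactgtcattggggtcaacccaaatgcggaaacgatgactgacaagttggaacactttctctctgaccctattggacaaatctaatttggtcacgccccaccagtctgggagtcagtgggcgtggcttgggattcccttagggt
Cox7a2 (chr9:79759854-79760103, minus strand): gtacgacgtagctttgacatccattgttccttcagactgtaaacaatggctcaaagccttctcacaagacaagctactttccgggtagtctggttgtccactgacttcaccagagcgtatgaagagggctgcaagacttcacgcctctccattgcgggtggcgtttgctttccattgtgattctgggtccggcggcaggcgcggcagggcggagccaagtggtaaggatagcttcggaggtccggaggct
Cox8b (chr7:140900447-140900696, minus strand): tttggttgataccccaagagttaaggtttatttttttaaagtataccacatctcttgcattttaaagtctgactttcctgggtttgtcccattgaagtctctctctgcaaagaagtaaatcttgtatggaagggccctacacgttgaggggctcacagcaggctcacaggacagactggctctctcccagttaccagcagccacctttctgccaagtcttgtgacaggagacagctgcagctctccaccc
Cox8a (chr19:7217617-7217866, minus strand): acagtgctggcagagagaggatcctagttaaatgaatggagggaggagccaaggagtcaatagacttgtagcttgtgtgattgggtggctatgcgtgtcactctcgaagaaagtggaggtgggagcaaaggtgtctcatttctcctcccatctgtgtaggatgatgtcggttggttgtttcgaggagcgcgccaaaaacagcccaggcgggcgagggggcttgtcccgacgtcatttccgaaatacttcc
Atp5l (chr9:44920743-44920992, minus strand): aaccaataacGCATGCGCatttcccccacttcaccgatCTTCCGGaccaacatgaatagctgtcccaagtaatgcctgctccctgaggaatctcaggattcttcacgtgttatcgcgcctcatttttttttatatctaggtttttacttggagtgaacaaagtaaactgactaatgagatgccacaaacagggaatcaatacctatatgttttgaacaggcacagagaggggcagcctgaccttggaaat

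In *Atp5l* the first run of capitals is the NRF1 word and the next is the ETS word read from the opposite strand. The 4 complex IV promoters held none of the searched words. They differed in CpG dinucleotides, with 4 in *Cox7a1* and 1 in *Cox8b*, the muscle forms, and 14 in *Cox7a2* and 11 in *Cox8a*, the widely expressed forms. The median over member promoters was 14 CpG, and that over all promoters was 6. *Cox8b* and *Cox7a1*, with few CpG, were the members with the lowest fold changes, but with a pair of promoters on each side this is a description only. *Cox6a2*, the muscle form with the next lowest log2 fold change (-0.84), had no promoter record and could not be compared.

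The rest of the pathway was taken from lists of known genes, and limma called 0 genes in each of them. Complex II, which is encoded in the nucleus alone and lies outside the symbols used for the members, had 4 of 4 genes with a lower mean in *Crlf2*-/- hearts and a median log2 fold change of -0.18, which was -0.08 without *Crlf2*-/- mouse 1. Its flavoprotein *Sdha* was at 36.9, 40.8 and 37.0 FPKM in WT mice and at 29.5, 34.0 and 37.7 FPKM in *Crlf2*-/- mice. *Cycs*, somatic cytochrome c, was at 15.8, 19.3 and 15.5 FPKM in WT mice and at 10.5, 11.5 and 14.2 FPKM in *Crlf2*-/- mice, without overlap (log2 fold change -0.48, standard error 0.14, adjusted p = 0.460). *Ndufab1*, the acyl carrier subunit of complex I, had a log2 fold change of -0.32 and *Cyc1*, cytochrome c1, one of -0.21, and *Usmg5* and *Atpif1*, an ATP synthase subunit and its inhibitor, were at -0.25 and -0.05. With *Crlf2*-/- mouse 1 left out, *Cyc1* was at -0.03, *Atpif1* at 0.03 and *Cycs* at -0.39. None of these 5 genes was called, against 0.0129% of all tested genes. In *Cycs*, *Ndufab1* and *Usmg5* all *Crlf2*-/- values lay below all WT values (60.0% of the 5 genes, against 6.15% of all tested genes).

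Assembly factors of the complexes were looked at next. The median log2 fold change was -0.15 for 14 complex I assembly factors (13 with a lower mean), -0.09 for 6 of complex III (5 lower), -0.09 for 17 tested of complex IV (12 lower) and -0.01 for 4 of complex V (2 lower). Without *Crlf2*-/- mouse 1 these medians were -0.11, 0.0019, 0.018 and 0.13, so that of the 4 only the complex I list stayed below 0, where it lay farther from 0 than the complex I members did. Among 15 regulators of mitochondrial genes 9 were lower and 6 higher, with a median of -0.09. *Ppargc1a*, the coactivator PGC-1α, was at 0.595, 0.706 and 1.04 FPKM in WT mice and at 0.448, 0.349 and 0.872 FPKM in *Crlf2*-/- mice, with overlap (log2 fold change -0.47, adjusted p = 0.931). *Esrra*, *Gabpa* and *Tfam* had log2 fold changes of 0.07, 0.08 and 0.03, and *Nrf1*, *Esrrg* and *Ppara* of -0.11, -0.07 and -0.27. The groups overlapped in all 6, with adjusted p from 0.991 to 0.996.

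Messages of the mitochondrial genome encode the partner subunits of complexes I, III, IV and V. Of 12 tested, 11 had a lower mean in *Crlf2*-/- hearts and the median log2 fold change was -0.25, but their pattern over hearts was another one. With single libraries left out this median ran from -0.38 (without WT mouse 1) to -0.12 (without WT mouse 3), and without *Crlf2*-/- mouse 1 it was -0.25. Their median deviation was -0.18, -0.03 and 0.21 in the WT libraries and -0.19, -0.29 and -0.22 in the *Crlf2*-/- libraries, so that WT mouse 3, lowest of the WT hearts for the nuclear members, was highest here, and *Crlf2*-/- mouse 1 did not stand out. In 5 of these 12 messages (41.7%) all 3 *Crlf2*-/- values lay below all 3 WT values, against 6.15% of all tested genes. *mt-Co3*, a core subunit of complex IV and 1 of the 5, was at 44.9, 56.9 and 55.3 FPKM in WT mice and at 39.8, 42.6 and 44.6 FPKM in *Crlf2*-/- mice (log2 fold change -0.30, adjusted p = 0.729). Its groups came close, at 44.6 and 44.9 FPKM. *mt-Co1*, another core subunit of complex IV, was at 6992, 8156 and 8633 FPKM in WT mice and at 6381, 6024 and 6396 FPKM in *Crlf2*-/- mice (log2 fold change -0.33). The reason for these unlike levels was not tested. The mitochondrial ribosome list had a median of -0.06, with 59 of 77 tested genes lower, and the cytosolic ribosome list had a median of -0.09, with 68 of 81 lower. The medians of both ribosome lists were 0.029 and -0.02 without *Crlf2*-/- mouse 1. In WT mouse 3 and *Crlf2*-/- mouse 1 the cytosolic ribosome list was at -0.20 and -0.19, and the respiratory chain members were at -0.14 and -0.47. The share of the respiratory chain members in the summed FPKM of all listed genes was 1.25%, 1.34% and 1.16% in WT mice and 0.950%, 1.15% and 1.24% in *Crlf2*-/- mice, and only *Crlf2*-/- mice 1 and 2 lay below the WT range, mouse 2 by less than 0.01 percentage points.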

How the data were processed

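RNA from infarcted hearts of 3 WT and 3 *Crlf2*-/- mice was sequenced after selection of poly-A RNA, whereas the extraction protocol in the labels names another tissue and kit. The labels and the study's methods were followed for the tissue. The authors trimmed reads, aligned them with HISAT2 2.0.5 (per the labels, which list mm10 and a human build), counted fragments with featureCounts and deposited FPKM for every gene, with the gene lengths used. The annotation release is not given in the sources used here. All 81 members are in GENCODE M21 (GRCm38), 75 at the same position, and 0 columns belonged to other samples.

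FPKM times gene length gave whole fragments for 100% of nonzero values (tolerance 0.01 fragments, larger in proportion above 1000 fragments). Scaling factors between libraries were trimmed means of M values of these fragments. Genes with 10 or more fragments in 3 or more libraries and a sum of 15 or more were tested on the scale of log2(FPKM + 0.1), which understates the change of low genes, with limma 3.58.1 in R 4.3.3 (eBayes with robust and trend) and Benjamini-Hochberg adjustment. Alternatives were another scaling, no scaling, other filters and pseudocounts, limma's voom, a replicate block and each library left out. Python 3.11.15, numpy 2.4.6, pandas 2.3.3, scipy 1.17.1 and matplotlib 3.10.9 served the other steps.

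Members and lists were chosen with earlier results of these data known, so no list was tested as a set. The members given with values are, per complex, the 3 most abundant, the 3 with the smallest p, the highest and lowest fold change, the isoform pairs and the c subunit genes. The values of 1 member are not reported here, though counts and medians include it. *Atp5h*, *Atp5j*, *Atp5k*, *Ndufa8*, *Ndufs7*, *Ndufb2*, *Sdha*, *Cycs*, *mt-Co3* and *mt-Co1* were named after their values were seen. Whether strand was used in counting is not given in the sources used here, and 36 members overlap another listed gene, 28 of them one on the opposite strand. Processed pseudogenes with member names (11 records) held 0.289% to 0.403% of the members' fragments. Separate mice are the replicates. A limma p sets the difference between the groups against the spread between mice within them, moderated over all tested genes. An exact permutation p ranks the difference among the ways to split these 6 libraries into 3 and 3.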

Additional observations from a re-analysis of the deposited data

How the results depend on the processing

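limma called 0 members under every alternative run, and the direction of the medians of all members and of complexes I, III, IV and V was kept throughout, with the sizes without single libraries given above. At an unadjusted limma p under 0.05 between 0 members (without WT replicate 2) and 20 members (without *Crlf2*-/- replicate 3) were lower and 0 were higher. The number of genes called among all tested was 2, became 6 with no filter on low genes and 1 with at least 10 fragments in every library, and ranged from 1 to 14 with single libraries left out, the 14 without *Crlf2*-/- replicate 1 and 8 without WT replicate 3. Correlations of the deviations of same-numbered samples were -0.02, 0.12 and 0.12, and 2 of 6 samples correlated best with their own number, so a shared number was not read as a pairing. With the replicate block 4 genes and 0 members were called.

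Values near 0 turned or moved. The median log2 fold change of complex V assembly factors was 0.000897 with a pseudocount of 1. With single libraries left out it ranged from -0.067 to 0.13, that of complex III assembly from -0.22 to 0.0019, of complex IV assembly from -0.16 to 0.018, of the regulators from -0.14 to -0.0045 and of the mitochondrial ribosome from -0.17 to 0.029. The log2 ratio of *Cox4i1* to *Cox4i2* ranged from -0.029 to 0.18 in its difference between groups. Of all 78 tested members, 71 had a log2 fold change below 0 with all 6 libraries and 52 without *Crlf2*-/- replicate 1. Ranges were read only for the members chosen by level, p, fold change, isoform pair or c subunit. Among those the sign turned for *Ndufa2* (-0.39 to 0.19), *Uqcrq* (-0.18 to 0.14), *Cox6a1* (-0.046 to 0.18), *Cox6b2* (-0.022 to 0.29), *Cox8a* (-0.28 to 0.019) and *Atp5s* (-0.025 to 0.24). For *Uqcrq* it was 0.03 without WT replicate 1 and 6.07e-05 without WT replicate 2. The causes were not tested. Half-widths of the 95% intervals of the members' log2 fold changes, without adjustment over genes, had a median of 0.36. These intervals excluded 0 in 13 members. With 3 mice a group, even the largest difference, -0.88 for *Cox8b*, did not pass after adjustment (adjusted p = 0.735 from limma).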

Other observations

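Other lists of marker genes differed between the hearts beside the respiratory chain members, and their part in the values above was not tested. Of 5 red blood cell genes, 5 had a lower mean in *Crlf2*-/- hearts with a median log2 fold change of -1.29, and of 7 T cell genes, 7 did with a median of -1.17, with limma calling 0 in both lists (smallest adjusted p 0.064 and 0.15). Fibroblast and macrophage markers had medians of 0.01 and 0.08. Of the 5 brown fat markers, chosen because that tissue is rich in mitochondria, 4 were tested and all 4 had a lower mean in *Crlf2*-/- hearts (median log2 fold change -1.16, with 0 called). The 5 summed to 4.98, 14.9 and 6.05 FPKM in WT mice and to 2.80, 2.51 and 6.70 FPKM in *Crlf2*-/- mice, highest in WT mouse 2, which also held the highest value of 55 respiratory chain members. *Adipoq*, an adipocyte hormone, was at 1.23, 6.93 and 1.13 FPKM in WT mice and at 0.132, 0.340 and 2.68 FPKM in *Crlf2*-/- mice. *Ucp1*, which defines brown fat, had 2 fragments in WT mouse 3 and 0 in the other libraries.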
